A study of Mus musculus with 14 samples.

Results

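Embryos with the DNA methyltransferase genes Dnmt1, Dnmt3a and Dnmt3b targeted at once were compared with the control embryos of the same sequencing table. The members were all 16 embryos of the Dnmt-TKO table, out of 88 embryos in the 7 tables of the series. Edited embryos were those whose name holds Dnmt-TKO and a number, which gave 12 embryos, and controls were the 4 embryos whose name ends in C in place of a number. Each of the stages E6.5, E7.5, E8.5 and E9.5 held edited embryos 1, 2 and 3 and 1 control. The sample labels span E6.5 to E10.5, but the Dnmt-TKO table holds no E10.5 embryo. Embryos numbered 1 and 2 belong to the labelled samples Dnmt-TKO-1 and Dnmt-TKO-2 with 4 embryos each, whereas the 4 embryos numbered 3 and the 4 controls match no labelled sample.

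Dnmt-TKO embryos came from zygotes that received mRNA of the cytosine base editor hA3A-eBE3-Y130F together with sgRNAs against Dnmt1, Dnmt3a and Dnmt3b. Edited and control embryos share a cross of C57BL/6 males with F1 females per the labels, and the study's methods give the females as B6D2F1 and the males as homozygous carriers of an Oct4-EGFP transgene. The tables do not say what the control embryos were injected with, and the sources used here do not give how embryos were picked for sequencing. Genomic DNA of whole embryos was read as amplicons, so a share of reads averages over all cells and both alleles of an embryo. Embryos of different stages are different animals. The comparison asks how completely the stop codons were installed at the 3 genes of one embryo.

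DNA methylation in mammals is laid down and kept by a small family of enzymes. DNMT3A and DNMT3B are the de novo methyltransferases, which methylate unmodified CpG sites and are highly active around implantation. DNMT1 is the maintenance methyltransferase, which copies methylation onto the new strand after replication. In a cytosine base editor, a deaminase enzyme is carried to the site by a Cas9 protein that cuts only one strand. It changes C to U on the strand left unpaired by the sgRNA, and copying of the DNA then fixes the U as T. Conversion of a CAG or TGG codon in this way gives a stop codon.

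The 3 windows are printed because every value in the report refers to their bases. Each is written on the guide strand with 3 bases of flank, 20 of protospacer and 3 of PAM (the motif that Cas9 needs beside its site), and capitals mark the cytosines that were converted to a large extent. Position 1 is the protospacer base farthest from the PAM, flanking bases before it have negative numbers, and a substitution gives the reference base, the position and the read base.
Dnmt1 window: ccaatCaatCagtggtggctcagtgg
Dnmt3a window: gcagttCCaggggtcttccttaatgg
Dnmt3b window: agagtatCaggtaaagcctgagaagg

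After conversion of the target cytosine, and of C4 beside it in Dnmt3a, the protospacers read as follows, with the new T in capitals. Each of the 3 changes creates a stop codon.
Dnmt1 converted: atcaatTagtggtggctcag
Dnmt3a converted: gttTTaggggtcttccttaa
Dnmt3b converted: gtatTaggtaaagcctgaga

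All 26 bases of each window equalled GRCm38, and each protospacer with its PAM was found at 1 place. The Dnmt1 site (chr9:20923746-20923765, minus strand) lies in exon 18 of 39 of transcript Dnmt1-201, where C7T changes a CAG codon to TAG and gives Q469* of 1620 residues. The Dnmt3a site (chr12:3899923-3899942, minus strand) lies in exon 15 of 23 of transcript Dnmt3a-201, with the guide on the strand opposite to the coding one. C4T alone or C5T alone turns the TGG codon into a stop, W577* of 908 residues. The Dnmt3b site (chr2:153666095-153666114, plus strand) has 7 nt in exon 7 of 24 of Dnmt3b-201 and 13 nt in the intron that follows, and C5T gives Q225* of 860 residues. The surrounding genomic sequence on the strand of each gene is given with the protospacer in capitals, to show that the exon of Dnmt3b ends after the first 7 capitals and that the capitals of Dnmt3a are the reverse complement of its guide. The amplicons, placed by the study's primers, were 102 bp, 94 bp and 90 bp long for Dnmt1, Dnmt3a and Dnmt3b.
Dnmt1, chr9:20923716-20923795, minus strand: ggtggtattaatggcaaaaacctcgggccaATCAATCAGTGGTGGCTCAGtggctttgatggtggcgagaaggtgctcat
Dnmt3a, chr12:3899893-3899972, plus strand: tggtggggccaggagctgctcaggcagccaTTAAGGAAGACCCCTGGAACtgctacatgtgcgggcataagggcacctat
Dnmt3b, chr2:153666065-153666144, plus strand: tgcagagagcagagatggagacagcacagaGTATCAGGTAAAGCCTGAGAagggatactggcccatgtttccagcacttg

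Conversion was nearly complete at all 3 targets in every edited embryo and near 0 in every control. T at the target C, as a share of the reads of all 4 bases, ran from 95.1% to 99.9% over the 36 edited windows with a median of 98.9%. It ran from 0.0485% to 5.03% over the 12 control windows with a median of 0.892%. All 12 edited embryos had at least 95% T at all 3 genes, 7 had at least 97% and 1 had at least 99%. Read numbers are not given for these windows, so depth is unknown and no counting interval is attached to a share.

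At the target of Dnmt1, which encodes the maintenance enzyme, T was 99.9% in E6.5 embryos 1, 2 and 3. In the E7.5 embryos it was 99.9%, 99.8% and 99.7%. The E8.5 embryos gave 97.9%, 99.2% and 99.7%, and the E9.5 embryos 99.6%, 99.6% and 98.9%. E8.5 embryo 1 was therefore the lowest and E9.5 embryo 3 the next. The 4 controls had 0.712%, 2.02%, 1.04% and 0.0485% from E6.5 to E9.5. The lowest edited embryo and the highest control were 95.9 percentage points apart.

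At C5 of Dnmt3a, which encodes a de novo enzyme, T was 98.3%, 97.8% and 95.1% in the E6.5 embryos and 97.4%, 95.1% and 98.9% in the E7.5 embryos. It was 97.0%, 98.5% and 99.4% at E8.5 and 99.4%, 99.3% and 99.4% at E9.5. The lowest 2 values of this gene were thus in different embryos of the earliest stages, and the E9.5 embryos lay within 0.0751 points of each other. In the controls T was 5.03% at E6.5, 3.79% at E7.5, 0.456% at E8.5 and 0.194% at E9.5. The E6.5 control held the highest background of the table, and the distance between lowest edited embryo and highest control was the smallest of the 3 genes at 90.1 points.

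At C5 of Dnmt3b, the other de novo enzyme, T was 97.0%, 96.6% and 99.0% at E6.5 and 99.4%, 98.2% and 98.1% at E7.5. It was 97.7%, 95.3% and 97.9% at E8.5 and 99.4%, 98.1% and 99.5% at E9.5. E8.5 embryo 2 was the lowest and E9.5 embryo 3 the highest of the 12. The controls had 1.11%, 0.743%, 0.665% and 1.16% from E6.5 to E9.5, the narrowest range of the 3 genes. Edited and control embryos were 94.1 points apart.

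**Figure D1:**
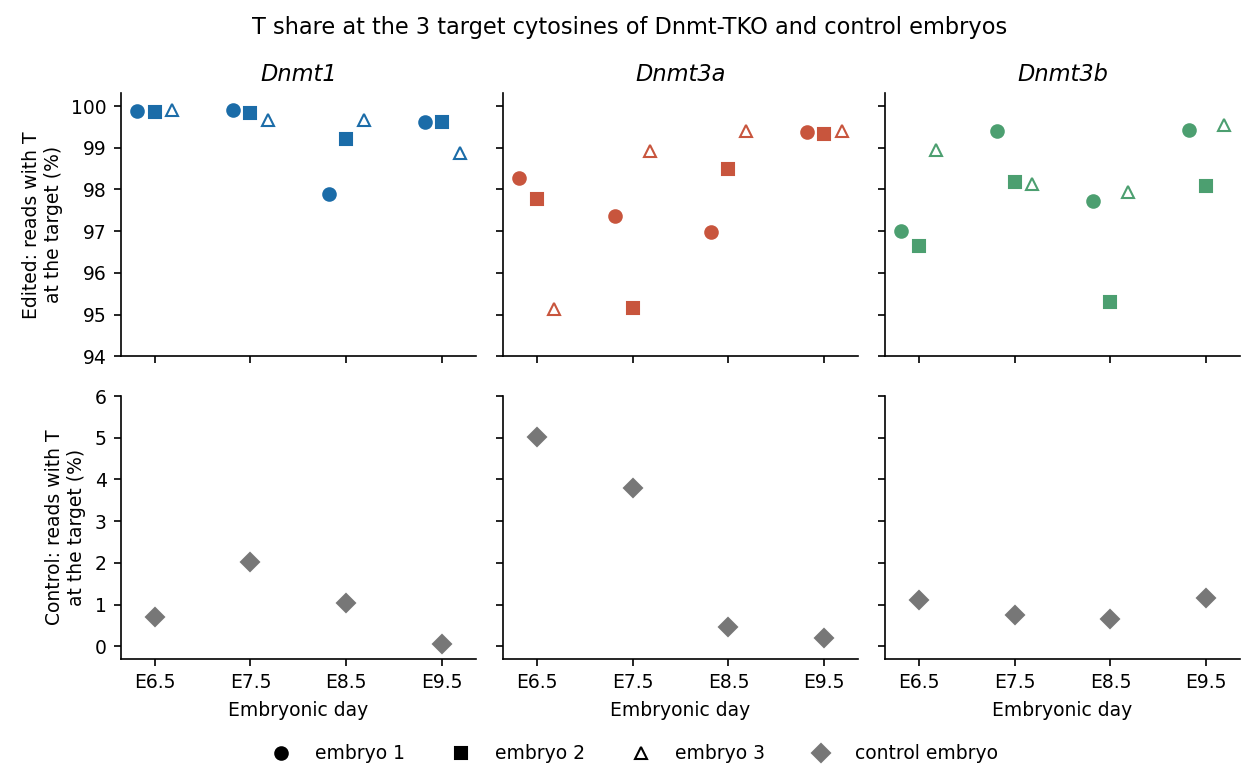
Reads with T at each gene's target C in percent (vertical axes, separate ranges for edited and control embryos) against embryonic day, with 1 point per embryo and no error bars. Edited embryos lie between 95.1% and 99.9% and controls between 0.0485% and 5.03%, with the 2 highest controls in Dnmt3a at E6.5 and E7.5.

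In every edited embryo, reads without T at the Dnmt3a and Dnmt3b targets held more C than A and G together. At the Dnmt1 target this varied between embryos. E7.5 embryo 3 had 0.031% C and 0.306% A and G together, whereas E8.5 embryo 1 had 1.99% C and 0.120%. A and G together reached at most 0.384% at an edited target and at most 0.215% at a control target. At Dnmt3a, the neighbouring C4 carried 95% to 99% T in edited embryos. In the controls C4 had 5% and 4% T at E6.5 and E7.5 and 0% at E8.5 and E9.5, each within 1 point of C5 of the same embryo. Values at positions other than the target are deposited with 2 decimals, so they are known to about 1 percentage point.

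Controls of other tables had been read at the same targets. Their T share ran from 0.342% to 2.36% at Dnmt1 (8 windows), from 0.437% to 3.97% at Dnmt3a (8 windows) and from 0.283% to 3.17% at Dnmt3b (8 windows). The Dnmt3a value of the E6.5 control lay above that range, and the E8.5 control lay within it at all 3 genes. The E9.5 control lay below it at Dnmt1 and Dnmt3a and within it at Dnmt3b. Where T came from in control embryos was not tested.

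Other cytosines of the windows were converted little, apart from C3 of Dnmt1. In the Dnmt3a window C12 had 0% to 4% T in edited embryos, at 1% or more in 11 of 12, and 0% in the 4 controls. The change C12T would give D575N. The C at flanking position -2 of that window had 1% T in 11 of 12 edited embryos and 0% in the 12th and in the controls. C15 of Dnmt3a had 1% T in 1 edited embryo and C16 none. At Dnmt1, C18 had 2% T in E9.5 embryo 3 and 0% in the other edited embryos, and C16 and the flanking C at -3 and -2 had 0% in all 12. The 2 flanking C had 1% T in 1 control each. A was listed at 1% at C18 of E9.5 embryo 3 and at C16 of the E8.5 control. C14 and C15 of Dnmt3b had 0% T in all 16 embryos, to the 2 decimals deposited.

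**Figure D2:**
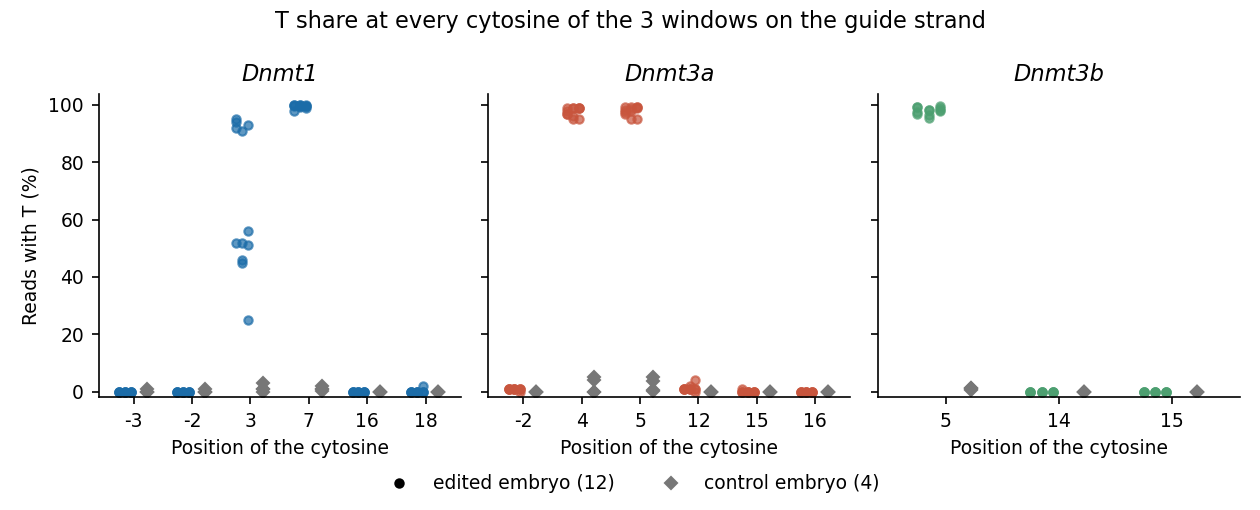
Percentage of reads with T (vertical axis) at each cytosine of the guide strand (horizontal axis, position in the protospacer, negative for flanking bases), 1 point per embryo for 12 edited and 4 control embryos. In the edited embryos the targets and Dnmt3a position 4 lie at 95% or more, Dnmt1 position 3 spreads from 25% to 95%, and all other positions are at 4% or less.

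The bystander C3 of Dnmt1 varied far more between embryos than any target. It lies in an isoleucine codon, C3T and C3A are synonymous there, and C3G gives I467M. T at C3 was 52%, 91% and 56% in E6.5 embryos 1, 2 and 3. It was 95%, 46% and 51% at E7.5. The E8.5 embryos had 94%, 52% and 25%, and the E9.5 embryos 92%, 45% and 93%. The values left a gap between 56% and 91%, with 5 embryos at 91% to 95%, 6 at 45% to 56% and 1 at 25%, and both bands were found at every stage. These bands are of T alone, and E6.5 embryo 1, at 52% T, kept only 4% unchanged C. The controls had 1%, 3%, 1% and 0% T.

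C3 was also the only cytosine of the 3 windows at which an edited embryo listed A or G at 5% or more. In E6.5 embryo 1, 43% of reads had A at C3, beside 52% T and 4% unchanged C. In E9.5 embryo 2, 7% had G, beside 45% T and 47% C. A at C3 was listed at 2% in E6.5 embryo 3 and at 1% in E6.5 embryo 2, E7.5 embryo 1 and E7.5 embryo 3. Thus 6 of 12 edited embryos had A or G at C3 at 1% or more, and 0 of the 4 controls.

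Since T at C7 was nearly complete, the shares at C3 set a lower limit on how often reads carried the stop together with each base at C3. In E6.5 embryo 1 at least 42.9% of reads had A at C3 and T at C7. In E8.5 embryo 3 at least 73.7% had the stop and an unchanged C3, and in E7.5 embryo 1 at least 94.9% had T at both. Embryos with 45% to 56% T at C3 therefore had T at C7 on reads with and without a change at C3. In E6.5 embryo 1 of that band, few reads were without a change, since 4% kept C at C3. These limits are sums of shares and hold to about 1 point.

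The same sgRNA was used in the Dnmt1-KO, 4KO and 6KO groups. In the study, Dnmt1-KO embryos had Dnmt1 alone targeted, and 4KO embryos Dnmt1 with Tet1, Tet2 and Tet3. The 6KO embryos had Tet1, Tet2, Tet3, Dnmt1, Dnmt3a and Dnmt3b targeted. Over their 26 edited embryos T at C3 ran from 39% to 99% with a median of 82.5%, against 25% to 95% with a median of 54% in the 12 Dnmt-TKO embryos. Over labelled samples alone the median was 71.5% in Dnmt-TKO (8 embryos), 76.5% in Dnmt1-KO (4 embryos), 81.5% in 4KO (6 embryos) and 94% in 6KO (6 embryos). A or G at C3 reached 1% in 0 of those 26 embryos, and in 6 of the 12 Dnmt-TKO embryos. Both control embryos of the Dnmt1-KO table listed A there, at up to 2%. This difference was seen in the values first and each group has a table of its own, so it was not tested, and table and group cannot be told apart.

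**Figure D3:**
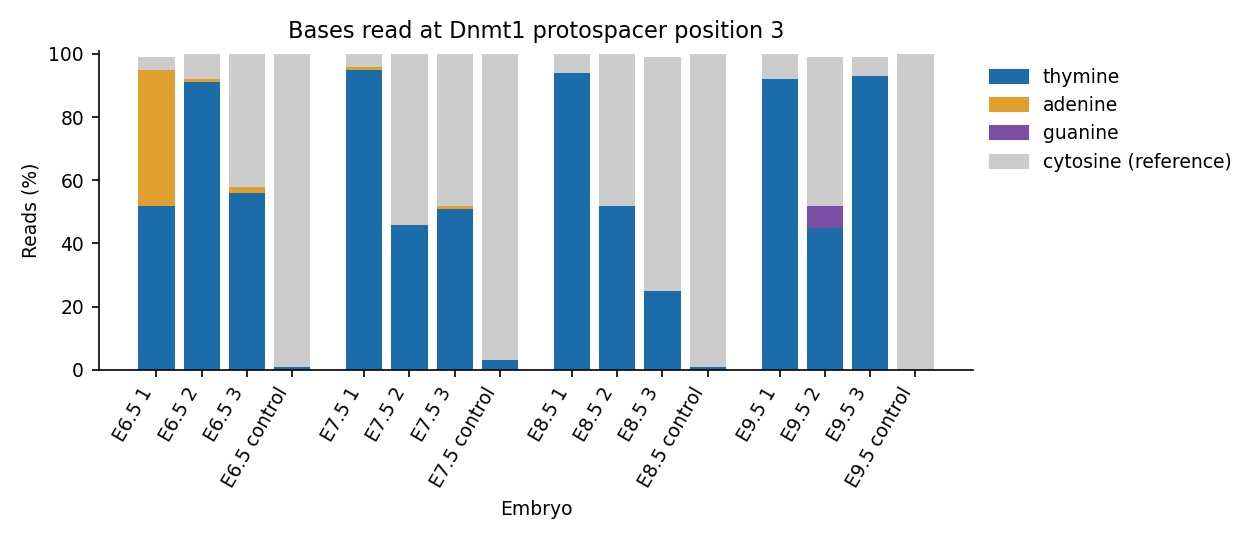
Percentage of reads with each base (stacked bars, vertical axis) at position 3 of the Dnmt1 protospacer in 12 edited and 4 control embryos (horizontal axis, ordered by stage). Thymine fills 25% to 95% of the bars of edited embryos, adenine 43% in E6.5 embryo 1 and guanine 7% in E9.5 embryo 2. Bars that stop at 99% reflect rounding of the deposited shares.

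Within an embryo, the Dnmt1 target was the most completely converted of the 3. Dnmt1 ranked first in 11 of 12 edited embryos and in all 8 embryos of the labelled samples. The exception was E9.5 embryo 3, with 98.9% at Dnmt1, 99.4% at Dnmt3a and 99.5% at Dnmt3b. Dnmt1 also kept the least unconverted C in all but 2 edited embryos, E9.5 embryo 3 and E8.5 embryo 1, where it kept 1.99% against 1.90% at Dnmt3b. Dnmt3a ranked last in 5 embryos, Dnmt3b in 6 and Dnmt1 in 1. The order Dnmt1, Dnmt3a, Dnmt3b occurred in 6 embryos, the order Dnmt1, Dnmt3b, Dnmt3a in 5 and the reverse of the first in 1.

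Over the 8 embryos of the labelled samples, Dnmt1 exceeded Dnmt3a by 1.63 percentage points (SD 1.48, range 0.236 to 4.68, n = 8), with an adjusted p = 0.0117 in an exact permutation test of the signs (two-sided, Benjamini-Hochberg over 3 pairs). Dnmt1 exceeded Dnmt3b by 1.75 points (SD 1.44, range 0.178 to 3.90, n = 8), with an adjusted p = 0.0117 in the same exact test. Dnmt3a and Dnmt3b differed by 0.124 points (SD 2.01, n = 8), with Dnmt3a higher in 4 of 8 embryos and an adjusted p = 0.875 in the exact test. That pair ranged from -3.03 to 3.19 points, so single embryos differed in opposite directions. When the T share of the control of the same stage and gene was subtracted, Dnmt1 exceeded Dnmt3a by 3.04 points (adjusted p = 0.0234 in the exact test) and Dnmt3b by 1.72 points (adjusted p = 0.0703 in the exact test). Both labelled embryos of a stage had the same control subtracted. Those 8 differences were thus not independent, and their p-values do not account for it. Without Dnmt-TKO-2 the excess over Dnmt3b was 0.935 points, and with the 4 embryos of either sample alone no exact p can fall below 0.125.

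The embryos numbered 3, which were not used in that test, gave the same rank in 3 of 4. E6.5 embryo 3 had 99.9% at Dnmt1, 95.1% at Dnmt3a and 99.0% at Dnmt3b, and its highest and lowest gene were 4.76 points apart, the widest of the 12. The narrowest embryo was E9.5 embryo 1, where the 3 genes lay within 0.236 points. In the controls the order was not that of the edited embryos. Dnmt3a had the highest T at E6.5 and E7.5, Dnmt1 at E8.5 and Dnmt3b at E9.5.

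Unconverted C at the target is the share of reads that list the reference base. At Dnmt1 it was 0.0579%, 0.0429% and 0.0357% at E6.5 and 0.0375%, 0.0635% and 0.031% at E7.5. It was 1.99%, 0.666% and 0.234% at E8.5 and 0.191%, 0.310% and 0.914% at E9.5. The highest of the 6 embryos of the first 2 stages was thus below the lowest of the 6 later ones. In those 6 early embryos A and G together ran from 0.0562% to 0.306% at the same base. Their residual C was thus about equal to or below the share of bases that were neither C nor T. Whether it was unedited DNA or error was not tested. At Dnmt3a residual C ran from 0.550% in E9.5 embryo 1 and E8.5 embryo 3 to 4.84% in E6.5 embryo 3. At Dnmt3b it ran from 0.323% in E9.5 embryo 1 to 4.40% in E8.5 embryo 2.

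No relation between the residual C of any pair of genes was detectable over embryos. Over the 8 labelled embryos, residual C of Dnmt1 and Dnmt3a had Pearson's r = 0.10 (exact permutation p = 0.776) and Spearman's rho = -0.19 (exact p = 0.665). For Dnmt1 and Dnmt3b, r was 0.096 (exact permutation p = 0.822) and rho 0.21 (exact p = 0.619). For Dnmt3a and Dnmt3b, r was -0.026 (exact permutation p = 0.953) and rho 0.024 (exact p = 0.977). Adjusted over the 3 pairs, the p of each r was 0.953 and the p of each rho 0.977 (exact permutation tests, two-sided). Without the 2 embryos farthest from the median of the first gene, r was -0.65, -0.28 and -0.32 over 6 embryos, with adjusted exact p-values of 0.458, 0.636 and 0.636. With 8 embryos, correlations of moderate size could not be told from 0.

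The gene that kept the most C differed between embryos. E7.5 embryo 2 kept 0.0635% at Dnmt1, 4.81% at Dnmt3a and 1.78% at Dnmt3b, whereas E8.5 embryo 2 kept 0.666%, 1.43% and 4.40%. E8.5 embryo 1 had the highest residual C at Dnmt1, 1.99%, and also the highest sum over the 3 genes, 6.85 points. The lowest sum was 1.06 points in E9.5 embryo 1.

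**Figure D4:**
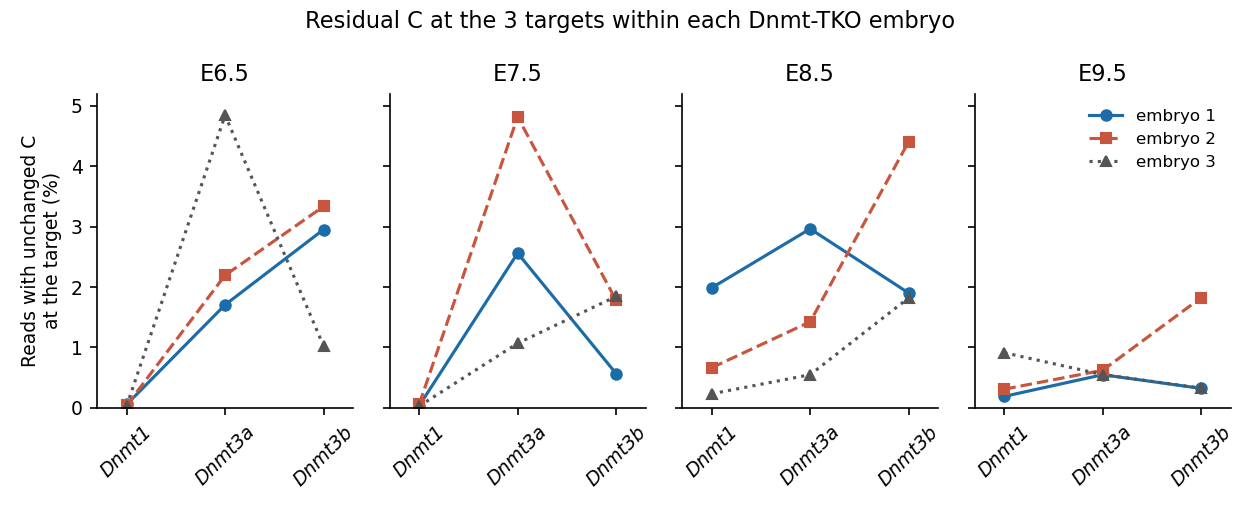
Percentage of reads with unchanged C at the target (vertical axis) for the 3 genes (horizontal axis), in 1 panel per stage, with a line joining the values of each edited embryo. Dnmt1 is the lowest point in every embryo except E9.5 embryo 3 and E8.5 embryo 1, and lines of some embryos cross between Dnmt3a and Dnmt3b.

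Residual C was next set beside the T share of the control of the same stage. At Dnmt3a both were lower at each later stage. Mean residual C was 2.91% at E6.5, 2.81% at E7.5, 1.65% at E8.5 and 0.575% at E9.5, while control T was 5.03%, 3.79%, 0.456% and 0.194%. At Dnmt3b mean residual C was 2.44%, 1.40%, 2.71% and 0.825%, and control T 1.11%, 0.743%, 0.665% and 1.16%. At Dnmt1 mean residual C was 0.0455%, 0.044%, 0.962% and 0.472%, and control T 0.712%, 2.02%, 1.04% and 0.0485%. The stage order of the 2 quantities was the same in Dnmt3a and not in the other 2 genes. SDs of residual C over the 3 embryos of a stage reached 1.88 at Dnmt3a and 1.47 at Dnmt3b, and with 1 control per stage the relation was not tested.

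No difference between stages passed the threshold after adjustment. Over the 8 labelled embryos, differences between stages made up 73.1% of the sum of squares of T at the Dnmt1 target (exact permutation p = 0.0286, one-sided, adjusted p = 0.114 over 4 measures). They made up 72.0% at Dnmt3a (exact permutation p = 0.124, adjusted p = 0.248) and 66.0% at Dnmt3b (exact permutation p = 0.200, adjusted p = 0.267). At the Dnmt1 bystander C3 they made up 0.539% (exact permutation p = 0.943, adjusted p = 0.943). With the embryos numbered 3 included, the shares at the targets were 45.5%, 40.3% and 44.6%, and 8.65% at C3. Shares with and without those embryos are not comparable, since the share arising by chance is smaller with more embryos per stage.

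Conversion in the Dnmt-TKO samples was then compared with the 6 samples of other groups that had received the same sgRNA, using 1 mean per sample. In the study, 5KO embryos had Tet1, Tet2, Tet3, Dnmt3a and Dnmt3b targeted, and Dnmt3ab-DKO embryos Dnmt3a and Dnmt3b. The compared groups thus differ in the genes targeted and in the number of sgRNAs. At the Dnmt3a target Dnmt-TKO-1 had 98.0% and Dnmt-TKO-2 97.7%. Both were below all 6 samples of the 5KO, 6KO and Dnmt3ab-DKO groups, which ran from 98.2% to 99.7%. The difference was -1.26 points, with p = 0.0357 in an exact permutation test (two-sided), the smallest that this design allows, and an adjusted p = 0.107 over 3 genes. It was therefore not a call.

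At the Dnmt1 target Dnmt-TKO-1 had 99.3% and Dnmt-TKO-2 99.6%, within the 98.5% to 99.8% of the 4KO, 6KO and Dnmt1-KO samples. The difference was 0.29 points (exact permutation p = 0.464, adjusted p = 0.464). It came to 0.138 points without Dnmt-TKO-2, 0.145 without 6KO-1, 0.443 without Dnmt-TKO-1 and 0.096 as T of T and C alone. At Dnmt3b the Dnmt-TKO samples had 98.4% and 97.1%, and the other samples 97.3% to 99.3%. The difference was -0.65 points (exact permutation p = 0.393, adjusted p = 0.464), and it came to 0.022 without Dnmt-TKO-2 and -1.31 without Dnmt-TKO-1. Each group has its own table, so group and table cannot be told apart.

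The groups also differ in stage, and the Dnmt1-KO and Dnmt3ab-DKO tables hold E10.5 embryos, which the Dnmt-TKO table does not. Each group was therefore set against the labelled Dnmt-TKO embryos of the stages both hold, as a description chosen after the data were seen. At Dnmt3a, Dnmt-TKO minus 5KO was -1.67 points over 3 stages from E7.5 to E9.5, and Dnmt-TKO minus 6KO was -0.89 over 3 stages from E6.5 to E8.5. At E9.5, the only stage shared with Dnmt3ab-DKO, the difference was -0.24 points, with 99.3% in Dnmt-TKO and 99.6% in Dnmt3ab-DKO. At Dnmt1 the differences were 0.32, 0.31 and 0.28 points against 4KO, 6KO and Dnmt1-KO. At Dnmt3b they were 0.17, -1.82 and 0.047 points against 5KO, 6KO and Dnmt3ab-DKO.

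**Figure D5:**
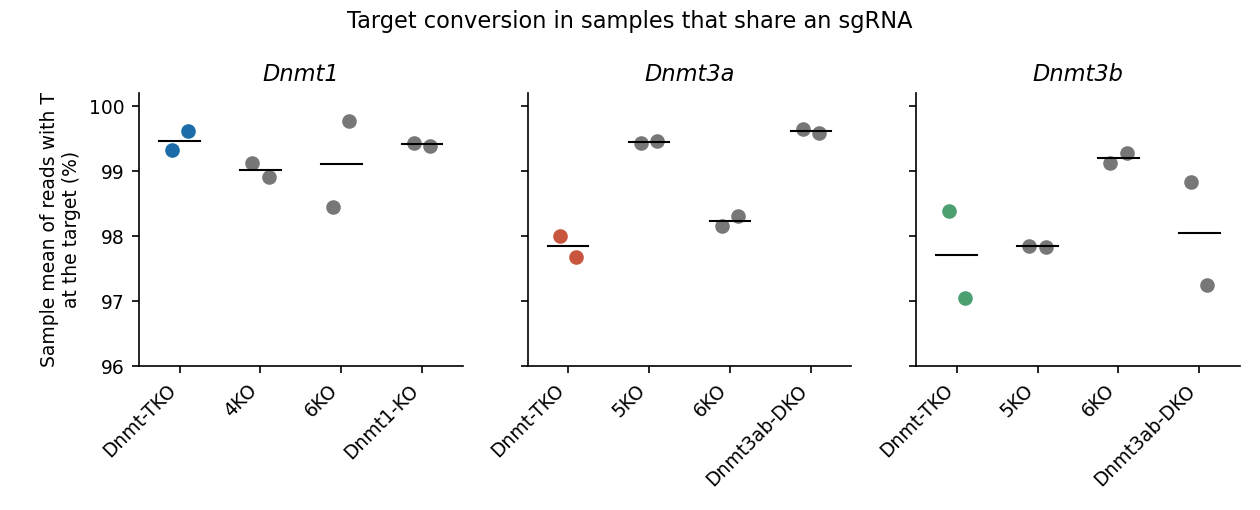
Mean T share at the target in percent per labelled sample (points, vertical axis not from 0) in the groups that share an sgRNA, with a line at the mean of the 2 samples of a group. The 2 Dnmt-TKO samples are the lowest of 8 in Dnmt3a and lie among the others in Dnmt1.

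Bases other than the reference were also examined away from the cytosines. In 1 control window, Dnmt1 at E8.5, 9 of 20 such bases listed another base at 1% or more, up to 5%. In 1 edited window, Dnmt1 of E9.5 embryo 3, the changes listed at such bases were G14T, G15T and G23T, each at 1%. No other window of the table had as many as 3. The E8.5 control was not the highest control at any of the 3 targets, so it sets none of the distances given between edited and control embryos.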

How the data were processed

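The authors extracted genomic DNA of embryos, amplified each target by PCR, ligated barcodes and sequenced pooled libraries as paired ends on a HiSeq X instrument. The deposited tables hold fractions of reads, from 0 to 1, with A, T, C or G at each of 26 bases of a window, with 2 decimals at most positions and up to 6 at the target. The submitters' processing notes list mm10; the aligner, read filters and base calling are not given in the sources used here. Sums of the 4 shares per base ran from 0.99 to 1. Depth per window is unknown, reads carried no molecular identifiers, and a share can shift where PCR starts from few molecules. Insertions and deletions have no line in the tables and were not analysed here.

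Fractions were multiplied by 100. The Dnmt3a window was converted to the guide strand. Windows were searched on both strands of GRCm38, the build that mm10 names, with NCBI's sequence, and annotated with GENCODE M21; codon numbers refer to the longest coding transcript. The target was the C that begins an in-frame CAG codon or, for Dnmt3a, C5. A cytosine was named where T was at least 5% in 1 edited or 1% in 1 control embryo. A or G at a cytosine was named where it reached 1%. Away from cytosines, other bases at 1% or more were named or counted per window. All 3 genes were reported in every embryo. The members and lists were chosen with earlier results of these data known. No windows had identical values (0 pairs).

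Tests used the 8 embryos, or the sample means, of the labelled samples; embryos numbered 3 entered as an alternative, and controls were described one by one. The tests were exact permutation tests (100000 permutations for correlations and stage labels with 12 embryos), Benjamini-Hochberg adjusted, at a threshold of 0.05, written in Python 3.11.15 with NumPy 2.4.6 and SciPy 1.17.1 and tested on simulated data. In the comparison between groups, p is the share of splits with an absolute difference at least as large. Nothing says whether embryos of a sample came from 1 litter or 1 injection, so p-values of tests over embryos measure the spread between these embryos. Those of the comparison between groups measure the spread between sample means. Alternatives were another denominator, scale, target base, rounding, background and set of embryos, samples or groups.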

Additional observations from a re-analysis of the deposited data

Results flagged for a closer look

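In 3 of 6 sets of 8 values from the embryos of the 2 labelled samples, 1 embryo stood farther from the rest than Dixon's 95% critical value allows. Chance gives that in about 1 of 20 sets of normally distributed values. The A and G shares are rounded and 0% in most embryos, so there any single higher embryo passes it. A at the Dnmt1 bystander C3 was 43% in E6.5 embryo 1 and at most 1% in the other 7. G at C3 was 7% in E9.5 embryo 2 and 0% in the other 7. T at the Dnmt1 target was 97.9% in E8.5 embryo 1, with the other 7 at 99.2% or more.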

How the results depend on the processing

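The excess of Dnmt1 over Dnmt3a and over Dnmt3b kept its sign under every alternative run. It passed the threshold in all of them except when the control of the same stage was subtracted, for Dnmt3b (1.72 points, adjusted p = 0.0703), and when 1 of the 2 Dnmt-TKO samples was left out, where 4 embryos cannot give an exact p under 0.125. With the control subtracted, both labelled embryos of a stage shared the same control, so those p-values treat dependent differences as independent. Leaving out a sample or an embryo gave 1.20 to 1.94 points against Dnmt3a and 0.935 to 2.57 against Dnmt3b. The difference of Dnmt3a and Dnmt3b, which was not a call, changed sign with all edited embryos (-0.0598 points), with the control subtracted (-1.32), with C4 in place of C5 of Dnmt3a (-0.22), and between -0.385 and 0.633 when samples or embryos were left out (embryos alone: -0.0391, -0.0201, -0.314 and -0.0364 without E6.5 embryo 1, E6.5 embryo 2, E8.5 embryo 2 and E9.5 embryo 2). The correlations of residual C, none of them a call, changed sign for Dnmt1 and Dnmt3a with all edited embryos (-0.052) and with C4 (-0.023), for Dnmt3a and Dnmt3b with C4 (0.066), and without the 2 farthest embryos for Dnmt1 with Dnmt3a (-0.65) and with Dnmt3b (-0.28). With 1 sample left out, 4 embryos gave r from -0.57 to 0.58, from 0.22 to 0.62 and from -0.34 to 0.29 for the 3 pairs, without a test. No test between stages passed the threshold in any setting, but with 1 stage left out 6 embryos cannot give an exact p under 0.0667, so those settings say nothing of stability. The range of T over embryos was 2.01 points at Dnmt1, 4.22 at Dnmt3a and 4.11 at Dnmt3b, and with 1 sample left out 0.644 to 2.01, 2.38 to 4.18 and 2.41 to 2.87. With the replicate number as a block, Dnmt-TKO differed from the other groups by 0.29, -1.26 and -0.65 points at Dnmt1, Dnmt3a and Dnmt3b, with exact permutation p-values of 0.438, 0.0625 and 0.375, where 0.0625 is the smallest possible; nothing in the labels says that equal numbers share a litter or day. Number 1 minus number 2 was above 0 in 2 of 4 groups at Dnmt1, 2 of 4 at Dnmt3a and 3 of 4 at Dnmt3b, where it was 1.33 points in Dnmt-TKO and 1.59 in Dnmt3ab-DKO. Leaving out a sample gave 0.138 to 0.443, -1.45 to -1.10 and -1.31 to 0.0218 points. A comparison restricted to stages that every group holds was not run, since there are 0 such stages. The distance to the controls moved by less than 1 SD of the edited embryos with T of T and C alone, with C4 and with labelled embryos only; leaving out the E8.5 control, added after the data were seen, could not move it. The causes of these changes were not tested. Unknown depth limits every value.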
